A study of Mus musculus with 73 samples.

Results

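The lysosomal gene group described here holds 46 genes, taken from a list of hydrolases, lysosomal membrane proteins and subunits of the lysosomal proton pump. All 46 were found among 23994 mouse gene rows of a single-cell expression table. By role, 11 encode cathepsins or other proteases, 7 glycosidases, 7 lipid hydrolases, activators or transporters, 5 membrane proteins, 2 a channel or a regulator, and 14 parts of the proton pump. The 73 cells came from 1 Csf1r-GFP mouse of the B6 strain, a 10 week adult, in which the promoter of the macrophage growth factor receptor gene drives a green fluorescent protein. The left lung lobe had been removed 7 days earlier, and the cells were taken from the right lobes. They were sorted as CD45+, CSF1R-GFP+ and F4/80+ macrophages, with Ly6G named in the labels without a sign. Every cell shares this genotype, treatment and time, so nothing here compares the operation with its absence. Cells of 1 mouse are not replicates of a condition. The spread given is over cells, and no p-value was computed.

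Lysosomes are the acidic organelles in which macrophages break down what they engulf. Their soluble enzymes, among them cathepsins, glycosidases and lipases, work at low pH, which is kept by a proton pump, the vacuolar ATPase. The V1 sector of this pump splits ATP on the cytosolic side, and its V0 sector carries the protons through the membrane. Alveolar macrophages live on the air side of the lung, where they take up and degrade surfactant, a mixture rich in lipids. Monocytes that enter the lung carry the chemokine receptor CCR2, and C1q is made by many resident macrophages of the tissue between the air spaces.

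Cells were classed by 7 genes that are not among the 46. Cells with FPKM (fragments normalised for transcript length and sequencing depth) of 10 or more for at least 2 of Ear1, Car4 and Plet1 are called AM-like, for alveolar macrophage. There were 14 of them (19.2% of 73, exact Clopper-Pearson 95% interval 10.9 to 30.1%, which covers counting error only). Another 10 cells had at least 2 of C1qa, C1qb and C1qc at this level and are called C1q-positive (13.7%, 6.77 to 23.8%). Of the remaining cells, 42 held Ccr2 at FPKM of 1 or more and are called Ccr2-positive (57.5%, 45.4 to 69.03%), and 7 were left unclassed.

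Of the AM-like cells, 10 had all 3 genes at this level and 4 had 2, and 5 cells just outside had 1. Of the C1q-positive cells, 8 had all 3 genes and 2 had 2, and 1 cell had 1.

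The classes were checked against marker genes that the rule did not use. Of 11 other alveolar macrophage genes, AM-like cells held a median of 8, against 1.5 in C1q-positive and 1 in Ccr2-positive cells, where a gene counts as detected at FPKM of 1 or more. Marco was detected in 10 of 14 AM-like cells and in 0 of 10 and 0 of 42 cells of the other classes, and Ear2 in 14 of 14, 3 of 10 and 7 of 42. Others set the class apart less. Chil3 was detected in 14 of 14, 2 of 10 and 29 of 42 cells. Itgax had a higher mean FPKM in C1q-positive (63.4) than in AM-like cells (46.6). Siglec5 was detected in 5 and Fabp4 in 7 of the 14 AM-like cells. Ccr2-positive cells held a median of 8 of 9 classical monocyte genes, such as Ly6c2 and Plac8, and 39 of the 42 held at least 5. C1q-positive cells held a median of 6 of 10 interstitial macrophage genes. Of these, Apoe and Mrc1 were detected in 10 of 10, Folr2 in 2 and Cd163 in 0. They do not set the class apart one by one, since Mrc1 was also detected in 14 of 14 AM-like and Apoe in 27 of 42 Ccr2-positive cells. The classes were not clean. Of the 14 AM-like cells, 2 also held Ccr2, at FPKM of 204 in cell 13 and 597 in cell 73, with 7 and 9 of the 9 monocyte genes. Of the 10 C1q-positive cells, 6 also held Ccr2. Marker lists of other lineages (neutrophils, lymphocytes, mast cells, endothelium, epithelium, fibroblasts, erythroid cells) were also searched, and 4 cells held 3 or more genes of a list at FPKM of 10 or more (cells 2, 30, 38 and 54). Of these, cells 30 and 38 are C1q-positive. Whether these were mixed captures was not tested.

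Depth and gene number differed between classes. Mouse genes took a median of 1216961 fragments in AM-like, 1641778 in C1q-positive and 1452722 in Ccr2-positive cells, with 347003 to 3485945 over all cells. A median of 2739.5 genes was detected in AM-like, 2322 in C1q-positive and 2222.5 in Ccr2-positive cells.

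The lysosomal genes were higher in AM-like cells, and the difference was larger for the proton pump than for the other genes. The level of a cell is the mean of log2(FPKM + 1) over a set of genes. Over the 46 genes it ran from 3.59 to 6.33 in AM-like cells (median 5.22), from 3.37 to 5.54 in C1q-positive cells (median 4.16) and from 1.82 to 5.66 in Ccr2-positive cells (median 4.12). In 13 of 14 AM-like cells the level was above the Ccr2-positive median, and in 5 it was above all 42 Ccr2-positive cells, so the classes overlap. C1q-positive and Ccr2-positive medians differed by 0.04, far less than the spread over cells (SD 0.67 and 0.94).

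The 14 pump genes and the 32 other genes did not follow the same order. The pump level had medians of 5.77 in AM-like, 3.26 in C1q-positive and 3.82 in Ccr2-positive cells. In 12 of 14 AM-like cells it was above all 10 C1q-positive cells, and the 2 exceptions had levels of 3.66 and 3.77. For the 32 other genes the medians were 4.93, 4.71 and 4.27. The means were 5.02 ± 0.83, 4.58 ± 0.68 and 4.18 ± 0.86 (SD over cells). C1q-positive cells thus lay between the other classes, at distances smaller than the spread over cells. The level of 15 housekeeping genes had medians of 6.66, 5.95 and 6.37, and 0 of 14 AM-like cells lay above all Ccr2-positive cells on it. The unclassed cells ranged most widely, from 1.23 to 5.91 over the 46 genes (median 3.27).

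**Figure D1:**
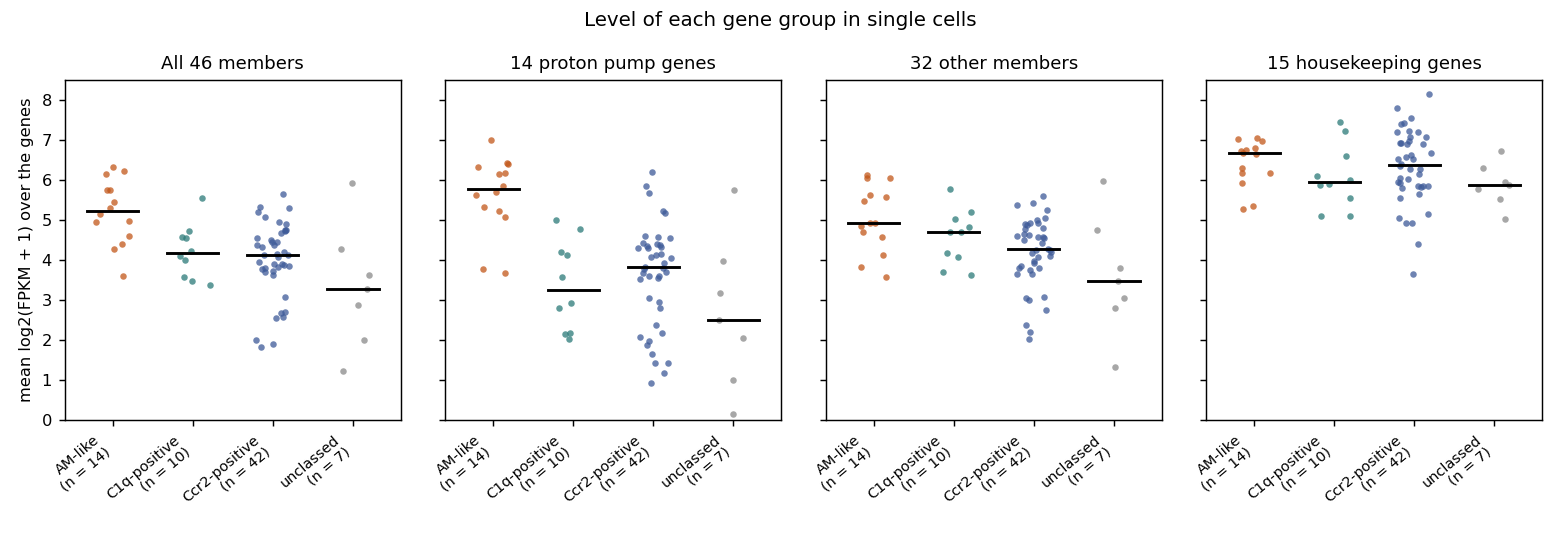
Level per cell (mean of log2(FPKM + 1) over the genes named above each panel, vertical axis) by cell class (horizontal axis). Each point is 1 cell and each bar is the class median. AM-like cells have a median of 5.77 for the 14 pump genes against 3.26 in C1q-positive and 3.82 in Ccr2-positive cells, while housekeeping medians are 6.66, 5.95 and 6.37.

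Counts of detected genes gave the same order. A median of 36.5 of the 46 genes was detected in AM-like cells, against 27.5 in both other classes. After each cell was thinned to 347003 mouse fragments the medians were 36, 27.5 and 27.5. Of the pump genes, a median of 12 was detected in AM-like, 7 in C1q-positive and 8.5 in Ccr2-positive cells, and 12.5, 7.5 and 8.5 after thinning. The AM-like cells with more pump genes detected than every Ccr2-positive cell numbered 6 before and 0 after thinning. The 0 comes from 1 Ccr2-positive cell, cell 64, which went from 12 to 13 pump genes, the highest count in AM-like cells too. All other Ccr2-positive cells had at most 12 after thinning. Over all 73 cells, the number of genes detected per cell ran from 1044 to 3745. The level of the 46 genes had a Spearman rho of 0.73 with this number over those cells. With the housekeeping level the rho was 0.49, and both are given as a description. The part of gene number in the class difference was not tested.

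Gene by gene, the difference used is that of the class means of log2(FPKM + 1), and 1 or more in size is called past the fold. AM-like minus Ccr2-positive, 23 of the 46 genes were past the fold upward and 3 downward. Among all 8576 genes with a mean FPKM of 1 or more, the shares were 13.5% upward and 6.46% downward. The median difference was 0.97 for the 46 genes and 0.03 for all genes. Of the 46 genes, 41 had a mean FPKM of 10 or more, and at that level the shares over all genes were 22.2% and 14%, with the same 23 and 3 counted. The log scale weighs the cells in which a gene was missed: of the 23 genes, 22 also had the higher mean FPKM in AM-like cells, but only 9 by 2-fold or more. A pseudocount of 10 in place of 1 weighs low values less. With it, 14 of the 46 were past the fold upward, beside 4.07% of all genes. The 9 were Ctsd, Ctsk, Lipa, Npc1, Gla, Atp6v0b, Atp6v0d2, Atp6v0e and Atp6v1g1.

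C1q-positive minus Ccr2-positive, 9 genes were past the fold upward and 6 downward, beside 11.5% and 6.28% of all genes. The median difference of 0.17 was close to that of all genes, 0.00. AM-like minus C1q-positive, 23 genes were past the fold upward and 6 downward, beside 14.1% and 11.9% of all genes, with a median of 1.02 against 0.01. At a mean FPKM of 10 or more, the same counts stood beside 18% and 13.7% of genes for C1q-positive minus Ccr2-positive cells, and beside 23.6% and 19% for AM-like minus C1q-positive cells. Both counts of C1q-positive minus Ccr2-positive cells moved with the setting. At a pseudocount of 10 they were 4 and 1, beside 2.79% and 2.02% of all genes. For the 4 C1q-positive cells without Ccr2 they were 15 and 11, beside 13.6% and 16.1% of all genes, whose median difference was then -0.27. Without the 4 cells that held markers of other lineages, the counts upward and downward were 22 and 3 for AM-like minus Ccr2-positive, 10 and 9 for C1q-positive minus Ccr2-positive, and 23 and 8 for AM-like minus C1q-positive cells. Shares of all genes were then 13.4% and 6.69%, 12.7% and 8.7%, and 16% and 12.6% in the same order. Without the 2 AM-like cells that held Ccr2, AM-like minus Ccr2-positive gave 24 and 4, beside 14.8% and 7.7% of all genes. These comparisons share their cells and are not independent of each other.

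**Figure D2:**
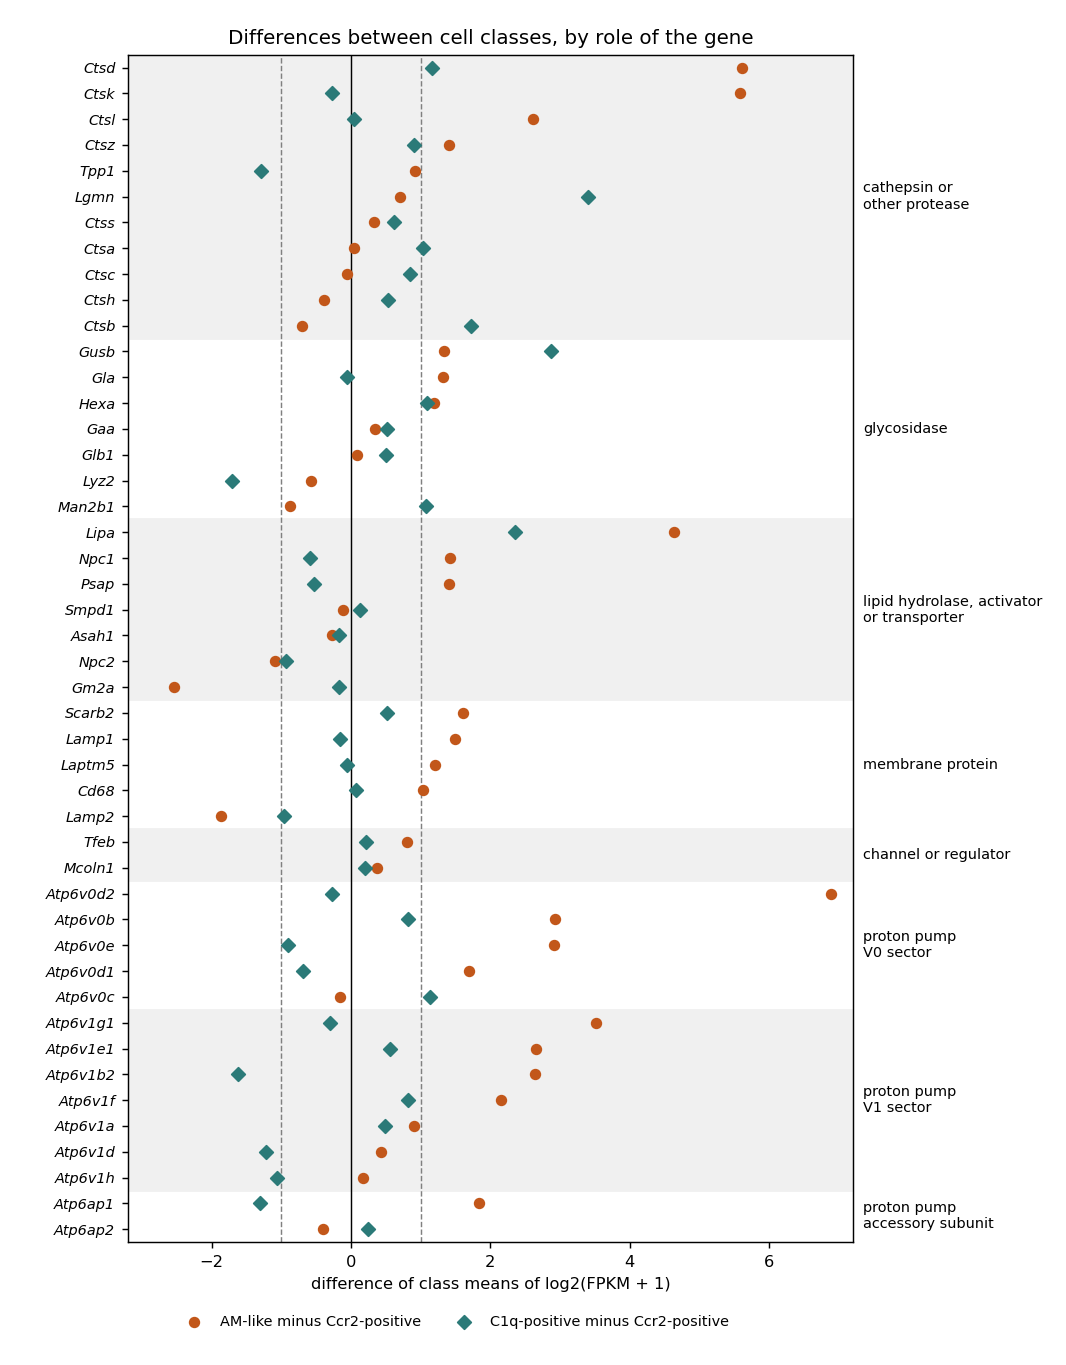
Difference of class means of log2(FPKM + 1) (horizontal axis) for the 46 genes (vertical axis), grouped by role. Circles are AM-like minus Ccr2-positive and diamonds C1q-positive minus Ccr2-positive, with dashed lines at -1 and 1. Atp6v0d2 (6.88), Ctsd (5.61) and Ctsk (5.57) lie farthest to the right for AM-like cells, and Lgmn (3.39) and Gusb (2.87) for C1q-positive cells.

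**Figure D3:**
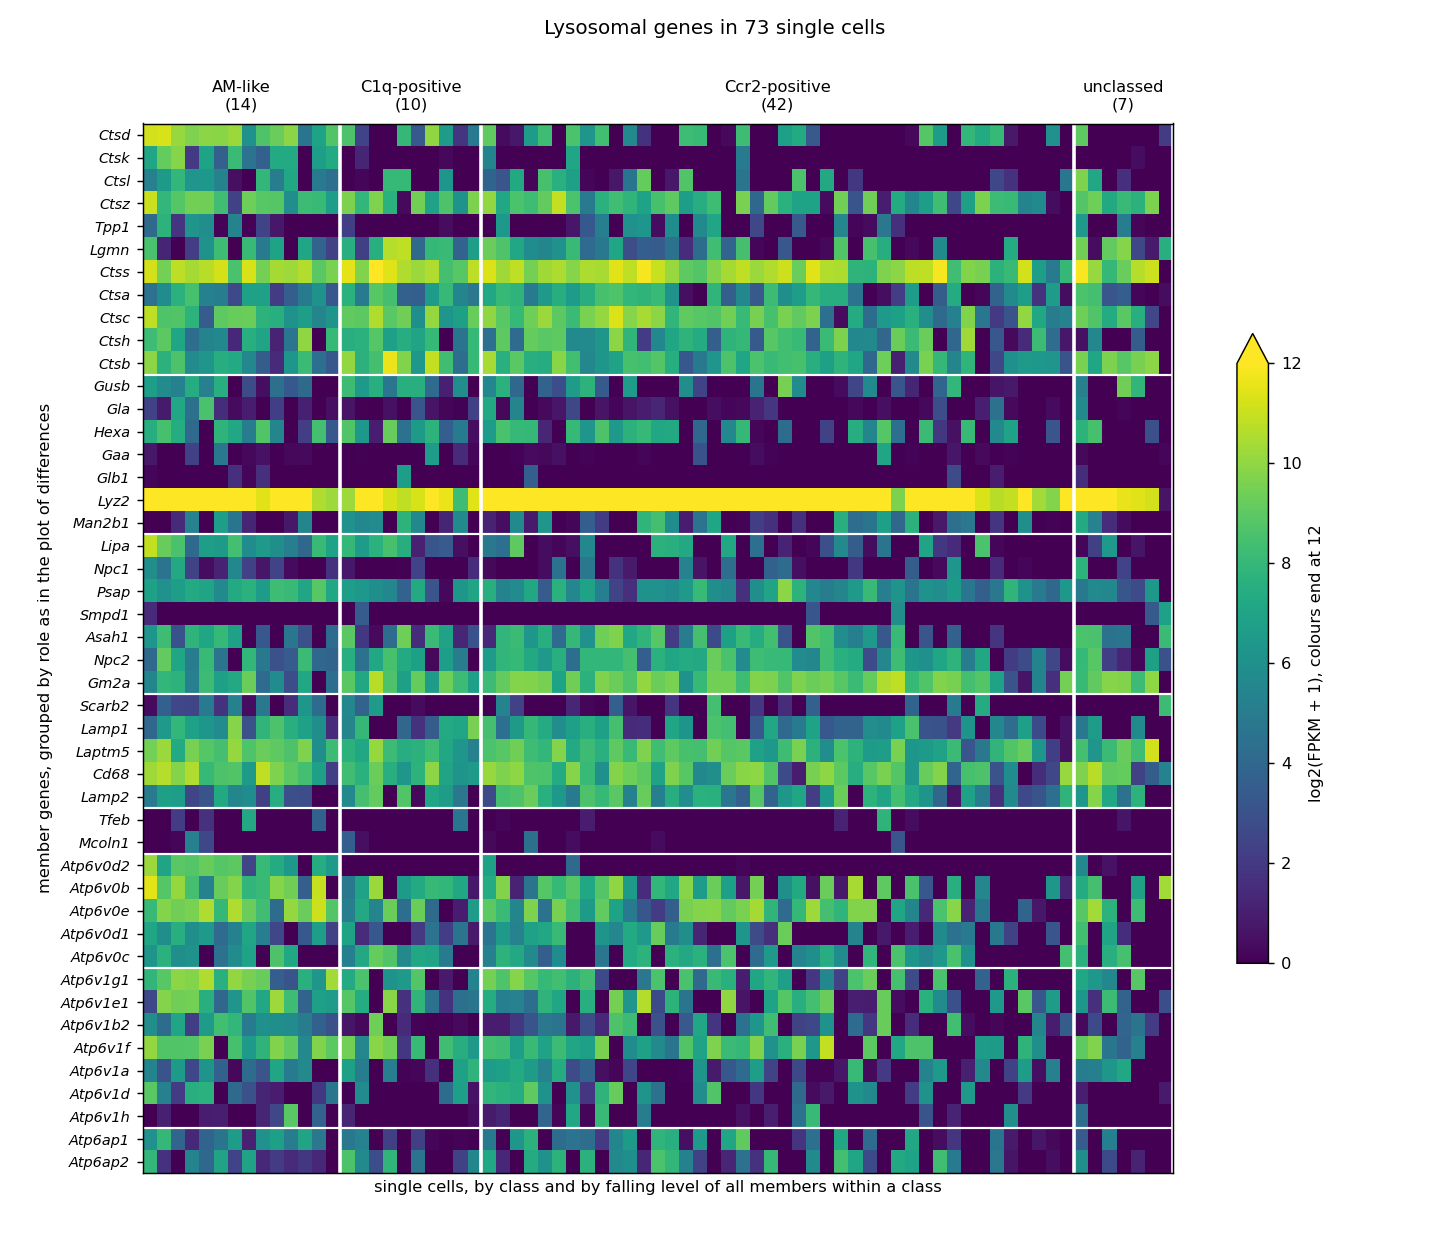
Each of the 46 genes (rows, grouped by role) in each of the 73 cells (columns, by class and by falling level within a class), coloured by log2(FPKM + 1). Lyz2 and Ctss are bright in almost every cell, Atp6v0d2 and Ctsk almost only in the AM-like block, and Mcoln1, Tfeb, Glb1, Gaa and Smpd1 are dark in nearly all cells.

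Many lysosomal genes carry in their promoters a short palindrome bound by TFEB and its relatives, the regulators of lysosome formation. The core of this element, CACGTG, was searched for on both strands in RefSeq promoters of the build GRCm38.p6, from 250 bases before to 50 after each start. Of the 46 genes, 38 had a promoter in that table. Ctsb, Ctsh, Npc1, Asah1, Atp6v0d2, Atp6v1b2, Atp6v1g1 and Atp6v1h had no entry. CACGTG was present in 13 of the 38 (34.2%), against 8.09% of 27025 genes and 12.4% of the 6472 of them with a mean FPKM of 1 or more in these cells. The longer TCACGTGA, which contains it, was present in 7 of the 38 (18.4%), against 1.12% and 2.49%. The 10-base palindrome with one further base on each side, G before and C after, was present in 0 of the 38, against 0.37% and 0.93%. A match is a description of the letters and not a site shown to be bound.

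The 9 stretches around TCACGTGA are printed because they hold the longer of the motifs found among the 38 promoters. Each is 28 bases, read 5′ to 3′ on the strand of its gene, with the motif in capitals.

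Atp6v0d1: cctactgcggTCACGTGAgacgcggtgc

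Atp6v0e: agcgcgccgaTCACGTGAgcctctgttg

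Atp6v1a: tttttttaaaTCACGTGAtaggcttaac

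Ctsa, first: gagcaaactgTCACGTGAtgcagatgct

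Ctsa, second: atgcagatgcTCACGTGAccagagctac

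Ctsd: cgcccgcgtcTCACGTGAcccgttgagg

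Gla, first: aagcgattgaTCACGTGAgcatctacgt

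Gla, second: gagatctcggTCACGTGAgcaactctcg

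Mcoln1: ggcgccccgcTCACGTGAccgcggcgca

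In GRCm38.p6 these lie at chr8:105566051-105566078 (minus strand) for Atp6v0d1, chr17:26676388-26676415 for Atp6v0e and chr16:44139374-44139401 (minus) for Atp6v1a. Those of Ctsa lie at chr2:164833750-164833777 and chr2:164833767-164833794, and that of Ctsd at chr7:142387909-142387936 (minus). Those of Gla lie at chrX:134601216-134601243 and chrX:134601183-134601210 (minus), and that of Mcoln1 at chr8:3500463-3500490. The 7 genes were not alike in these cells. Of the 7, 4 were past the fold upward in AM-like against Ccr2-positive cells (Ctsd, Atp6v0e, Atp6v0d1 and Gla), while Ctsa differed by 0.04. Of the 13 genes with CACGTG, 7 were past the fold upward, and of the 25 without it, 12, beside 13.5% of all genes. Median differences were 1.32 with it and 0.92 without it.

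Of the 5 genes of the V0 sector, 4 were past the fold upward in AM-like against Ccr2-positive cells and 0 downward. Shares of all genes were 13.5% and 6.46%. Atp6v0d2 and Atp6v0d1 encode alternative forms of the d subunit, which sits on the cytosolic face of the membrane sector. Atp6v0d2 (chromosome 4, 19876841 to 19922605 in mm10, protein-coding) ran from 0 to 1154 FPKM in AM-like cells with a median of 220. It was 0 in all 10 C1q-positive cells, and in the Ccr2-positive cells its median was 0 and its maximum 116. It was detected in 13 of 14 AM-like cells (92.9%, 66.1 to 99.8%), in 2 of 42 Ccr2-positive cells (4.76%, 0.58 to 16.2%) and in 0 of 10 C1q-positive cells (exact upper bound 30.8%). These limits are for cells in which the transcript was captured, not for cells that express the gene. The means were 322 ± 311 (SD, n = 14) and 3.16 ± 18.1 (SD, n = 42), a difference of 6.88, the largest of the 46 genes. In 10 of 14 AM-like cells Atp6v0d2 was above every Ccr2-positive cell.

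Atp6v0d1 (chromosome 8, 105524465 to 105566047) is the widely expressed form. Its means were 62.5 ± 58.7 in AM-like, 18.8 ± 38.2 in C1q-positive and 63.1 ± 137 in Ccr2-positive cells. The medians of 49.8, 3.19 and 6.91 differ more, since it was detected in 13 of 14 AM-like, 7 of 10 C1q-positive and 25 of 42 Ccr2-positive cells. The difference of 1.69 between AM-like and Ccr2-positive cells came with a higher share of cells with the transcript and not with a higher mean FPKM. In 12 of 14 AM-like cells both forms were detected, and in 12 Atp6v0d2 was the higher of the pair. In Ccr2-positive cells Atp6v0d1 was the higher in 26 and Atp6v0d2 in 2.

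Cell 73, the AM-like cell with the most Ccr2, held neither Atp6v0d2 nor Ctsk, and cell 13 held 4.64 FPKM of Atp6v0d2. Without these cells the remaining 12 AM-like cells held Atp6v0d2 in 12 of 12, from 82.03 to 1154 FPKM. Outside the AM-like class, 3 cells held it. Cell 64 (Ccr2-positive, 116 FPKM) had 7 of the 11 alveolar markers and Ccr2 at only 3.78. Cell 75 (Ccr2-positive, 16.1 FPKM) had 5 of them and 6 of 9 monocyte genes. Cell 83 (unclassed, 47.1 FPKM) had 2, as had cell 30, in which Atp6v0d2 was 0.

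The proteolipid subunits, which form the rotating ring in the membrane, did not move together. Atp6v0b ran from 0 to 2880 FPKM in AM-like cells (median 525), from 0 to 1156 in C1q-positive cells (median 133) and from 0 to 1389 in Ccr2-positive cells (median 93.7), a difference of 2.92 between AM-like and Ccr2-positive cells. Atp6v0e, a small membrane subunit, had means of 797 ± 602, 162 ± 251 and 339 ± 387 in the same order, also a difference of 2.92. In 7 of 14 AM-like cells Atp6v0e was above all C1q-positive cells. Atp6v0c, the other ring subunit, differed by -0.15 between AM-like and Ccr2-positive cells, and was past the fold upward in C1q-positive cells (1.13), with means of 82.0 ± 110, 154 ± 196 and 93.7 ± 117.

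Of the 7 genes of the V1 sector, 4 were past the fold upward in AM-like against Ccr2-positive cells and 0 downward. Shares of all genes were 13.5% and 6.46%. Atp6v1g1 encodes a subunit of the peripheral stalk. It ran from 7.81 to 1506 FPKM in AM-like cells (median 536), from 0 to 439 in C1q-positive cells (median 54.7) and from 0 to 918 in Ccr2-positive cells (median 36.3), a difference of 3.51. Of the 42 Ccr2-positive cells, 39 lay below the AM-like median. Atp6v1e1, of the same stalk, was 2.65 higher, with medians of 169, 22.97 and 37.7 and ranges that overlap.

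Atp6v1b2, a subunit of the ATP-splitting head, was detected in 14 of 14 AM-like cells, 2 of 10 C1q-positive cells and 25 of 42 Ccr2-positive cells. Its medians were 57.3, 0.14 and 2.81 FPKM. Of the 2 C1q-positive cells with the transcript, cell 32 held 649 FPKM and cell 15 only 1.75. The AM-like and C1q-positive means of 81.7 ± 95.3 and 65.2 ± 205 hardly differ, but the latter rests on cell 32 alone. The differences were 2.64 for AM-like minus Ccr2-positive and -1.62 for C1q-positive minus Ccr2-positive cells. Its partner in the head, Atp6v1a, differed by 0.90 and 0.48. Atp6v1f, of the central rotor, was 2.15 higher in AM-like than in Ccr2-positive cells. Atp6v1d, also of the rotor, and Atp6v1h, the regulatory subunit, differed by 0.43 and 0.17.

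In C1q-positive cells the pump genes were divided. Atp6v1b2, Atp6v1d, Atp6v1h and the accessory gene Atp6ap1 were past the fold downward against Ccr2-positive cells, by -1.62, -1.22, -1.06 and -1.31. That made 4 of 14 downward and 1 upward, Atp6v0c, beside the 6.28% and 11.5% of all genes above. Each of the 4 missed the fold under some other settings, Atp6v1h under 6 of them and the others under 2 each. Atp6v0c, the gene upward, missed it under 5. Atp6ap1, whose protein assists pump assembly, had means of 58.9 ± 69.2 in AM-like, 7.42 ± 13.9 in C1q-positive and 49.1 ± 100.6 in Ccr2-positive cells. Atp6ap2, also called the prorenin receptor, differed by -0.40 and 0.24. Set against C1q-positive cells directly, AM-like cells had 11 of 14 pump genes past the fold upward and 1 downward, Atp6v0c (-1.29), beside 14.1% and 11.9% of all genes.

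**Figure D4:**
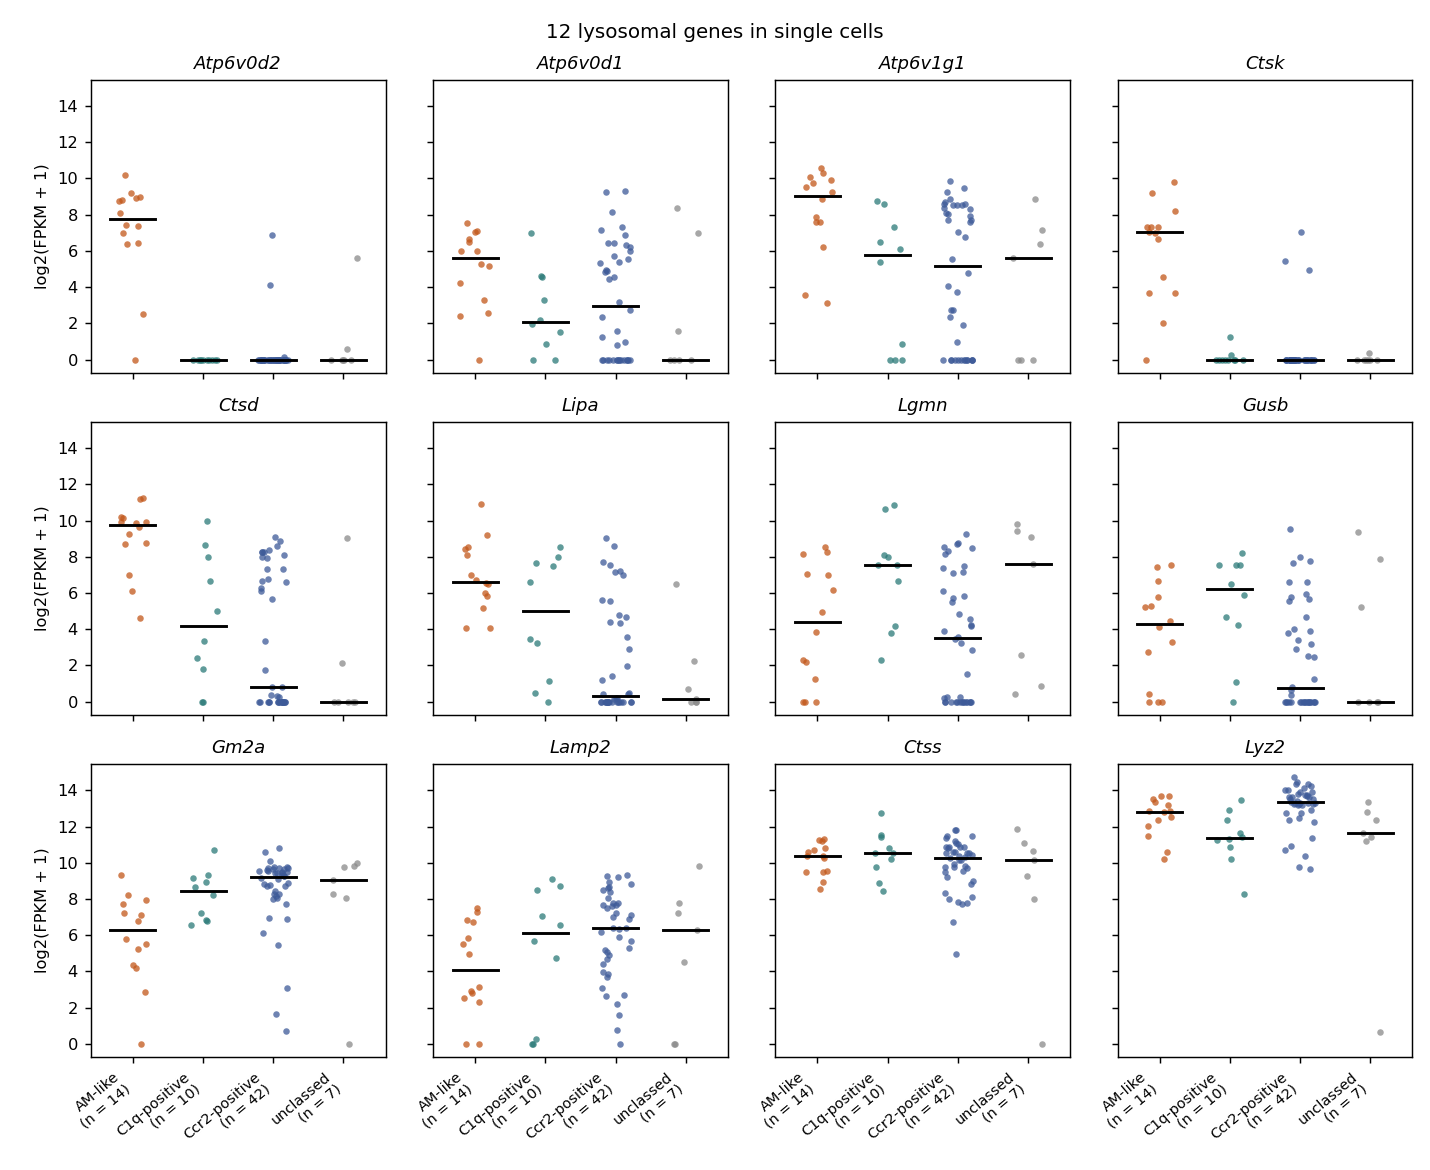
log2(FPKM + 1) (vertical axis) of 12 genes in each cell, by class (horizontal axis), with bars at the class medians. Atp6v0d2 and Ctsk are at 0 in almost all cells outside the AM-like class, Atp6v0d1 is spread over all classes, Lgmn and Gusb are highest by median in C1q-positive cells among the 3 named classes, and Gm2a and Lamp2 are lowest by median in AM-like cells.

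Among the 11 proteases, 4 were past the fold upward in AM-like against Ccr2-positive cells (Ctsd, Ctsk, Ctsl and Ctsz) and 0 downward. Shares of all genes were 13.5% and 6.46%. Ctsd encodes cathepsin D, the main aspartic protease of lysosomes (chromosome 7, 142375911 to 142388038). It ran from 23.3 to 2477 FPKM in AM-like cells (median 875), from 0 to 1026 in C1q-positive cells (median 20.2) and from 0 to 540 in Ccr2-positive cells (median 0.74). In 9 of 14 AM-like cells it was above all Ccr2-positive cells, and in 42 of 42 Ccr2-positive cells it was below the AM-like median. The means of 892 ± 751, 183 ± 326 and 101.2 ± 150 give an 8.81-fold ratio of AM-like to Ccr2-positive cells. The 2 AM-like cells with Ccr2 were the lowest of their class, at 66.8 and 23.3 FPKM, and the other 12 ran from 125 upward.

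Ctsk encodes cathepsin K, a collagen-degrading protease best known from osteoclasts (chromosome 3, 95499256 to 95509362). It ran from 0 to 897 FPKM in AM-like cells, with a median of 129. It was detected in 13 of 14 of them, in 1 of 10 C1q-positive cells, at 1.40 FPKM, and in 3 of 42 Ccr2-positive cells. The means were 189 ± 254 in AM-like and 4.85 ± 21.6 in Ccr2-positive cells, a difference of 5.57. All 13 AM-like cells with Ctsk also held Atp6v0d2, and the remaining AM-like cell held neither. The 3 Ccr2-positive cells with Ctsk were cells 64, 67 and 75, at 42.2, 29.6 and 132 FPKM. Cells 64 and 75 are those that also held Atp6v0d2, and all of them held Ctsd at 311 FPKM or more.

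Ctsl and Ctss encode cysteine proteases related to cathepsin K. Ctsl was detected in 11 of 14 AM-like, 3 of 10 C1q-positive and 16 of 42 Ccr2-positive cells, with medians of 38.1, 0 and 0 FPKM. Where detected, its mean was 94.4 in AM-like, 200.2 in C1q-positive and 156 in Ccr2-positive cells, so it was found in more AM-like cells and not at a higher level in them. Ctss, the cathepsin that trims the invariant chain of MHC class II, was the most abundant protease transcript in all 3 classes. Its means were 1373 ± 717, 2019 ± 1908 and 1320 ± 917, and the differences between classes were at most 0.62 in size, less than the spread over cells.

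Of the 11 proteases, 4 were past the fold upward in C1q-positive against Ccr2-positive cells and 1 downward, beside 11.5% and 6.28% of all genes. Lgmn encodes legumain, which cleaves after asparagine and processes other cathepsins (chromosome 12, 102394084 to 102439813). It ran from 3.85 to 1843 FPKM in C1q-positive cells (median 185), from 0 to 378 in AM-like cells (median 21.5) and from 0 to 609 in Ccr2-positive cells (median 10.6). It was detected in 10 of 10, 11 of 14 and 25 of 42 cells, and the difference of C1q-positive minus Ccr2-positive cells was 3.39. Of the 10 C1q-positive cells, 9 lay above the Ccr2-positive median, and 2 lay above every Ccr2-positive cell. Ctsb, cathepsin B, had means of 827 ± 1012 in C1q-positive, 179 ± 257 in AM-like and 243 ± 275 in Ccr2-positive cells, differences of 1.72 from Ccr2-positive cells and, for AM-like minus C1q-positive cells, -2.43. Ctsa, which protects other lysosomal enzymes, and Ctsd were also past the fold upward in C1q-positive cells, by 1.04 and 1.16. For Ctsa only 5 of 10 C1q-positive cells lay above the Ccr2-positive median, and it missed the fold under 4 other settings. Ctsd missed it under 1. In the unclassed cells Lgmn ran from 0.33 to 908 FPKM and Ctsb from 0 to 971. Neither gene thus sets the C1q-positive class apart from the unclassed cells.

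The remaining proteases overlapped widely between classes. Ctsz, cathepsin Z, had means of 488 ± 520, 413 ± 330 and 298 ± 364 in AM-like, C1q-positive and Ccr2-positive cells, and AM-like minus Ccr2-positive was 1.41. Ctsc, which activates granule proteases, had means of 383 ± 477, 566 ± 462 and 497 ± 519. Ctsh was detected in 13 of 14, 9 of 10 and 38 of 42 cells and differed by -0.39 between AM-like and Ccr2-positive cells. Tpp1, an exopeptidase, was found in 7 of 14, 1 of 10 and 13 of 42 cells and was past the fold downward in C1q-positive cells (-1.29).

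The 9 cathepsins together reached median sums of 3441 FPKM in AM-like, 3749 in C1q-positive and 2643 in Ccr2-positive cells, so the make-up differed more than the total. Per cell, Ctss made up a mean of 37.98% ± 13.7 in AM-like, 44.6% ± 14.5 in C1q-positive and 44.4% ± 16.6 in Ccr2-positive cells. It was the leading cathepsin in 12 of 14, 7 of 10 and 33 of 42 cells. Ctsd took 22.7% ± 13.5 in AM-like cells, against 3.85% ± 5.49 and 4.29% ± 7.08. Ctsb took 16.2% ± 13.6 in C1q-positive cells, against 3.54% ± 3.14 in AM-like and 8.68% ± 8.15 in Ccr2-positive cells. In the unclassed cells Ctsb took 21.3% ± 19.3. Ctsk took 5.22% ± 5.14 in AM-like cells and 0.01% and 0.15% in the others. Shares of a fixed total are tied to each other, so that a higher share of one lowers the rest.

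**Figure D5:**
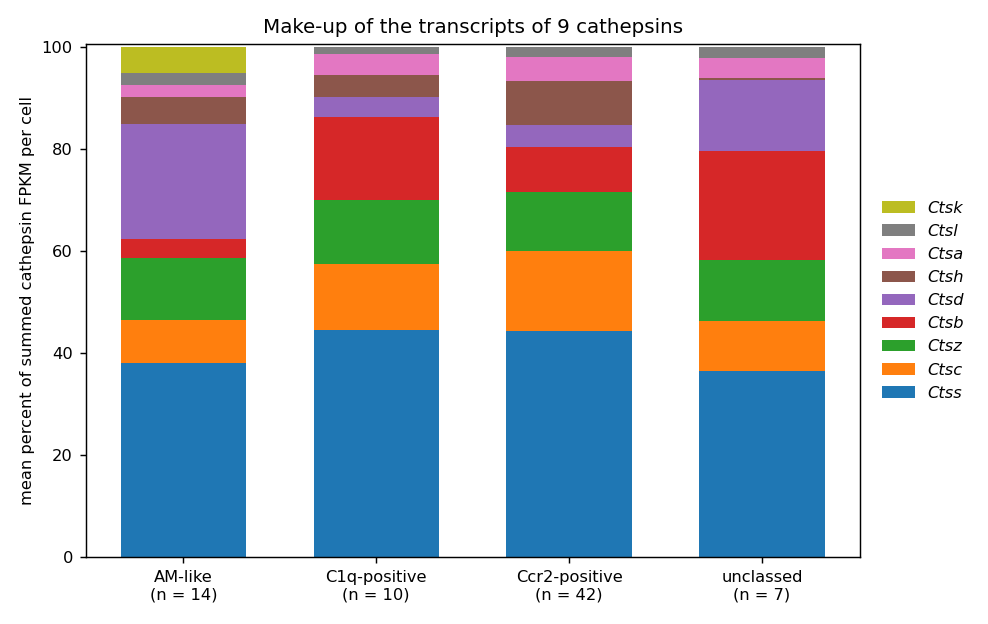
Mean percent of the summed FPKM of 9 cathepsins per cell (vertical axis, linear from 0) taken by each gene, for each class (horizontal axis). Ctsd takes 22.7% in AM-like cells against 3.85% in C1q-positive and 4.29% in Ccr2-positive cells. Ctsb takes 16.2% in C1q-positive and 21.3% in unclassed cells.

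Of the 7 glycosidases, 3 were past the fold upward in AM-like against Ccr2-positive cells (Gusb, Gla and Hexa) and 0 downward. Shares of all genes were 13.5% and 6.46%. Gusb encodes beta-glucuronidase (chromosome 5, 129989011 to 130003049). Of the 3 named classes it was highest in C1q-positive cells, where it ran from 0 to 298 FPKM with a median of 74.3. In AM-like cells it ran from 0 to 183 (median 18.7) and in Ccr2-positive cells from 0 to 735 (median 0.66). It was detected in 9 of 10, 10 of 14 and 20 of 42 cells, and C1q-positive minus Ccr2-positive was 2.87. AM-like minus Ccr2-positive was 1.34, although the mean FPKM was almost equal, at 45.4 ± 62.3 and 45.3 ± 124.

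Lyz2, the lysozyme of macrophages, which splits bacterial cell walls, was the most abundant of the 46 genes in every named class. It ran from 1198 to 13378 FPKM in AM-like cells (median 7245), from 305 to 11212 in C1q-positive cells (median 2616) and from 805 to 26942 in Ccr2-positive cells (median 10326). C1q-positive minus Ccr2-positive was -1.71, and 9 of 10 C1q-positive cells lay below the Ccr2-positive median. Lyz2 alone made up a median of 1.67% of the mouse FPKM of an AM-like cell, 0.73% of a C1q-positive cell and 2.2% of a Ccr2-positive cell. Its near-identical neighbour Lyz1, singled out after its values were seen, had means of 1021, 347 and 1040 FPKM. Reads of such similar genes can be divided unevenly, and how they were divided is not given in the sources used here.

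Hexa, the alpha chain of beta-hexosaminidase, had means of 140 ± 151, 149 ± 208 and 104 ± 132 in AM-like, C1q-positive and Ccr2-positive cells, and was past the fold upward in both former classes against Ccr2-positive cells, by 1.19 and 1.09. Gla, alpha-galactosidase A, was detected in 7 of 14, 2 of 10 and 8 of 42 cells, and 1 AM-like cell reached 374 FPKM. Man2b1, a lysosomal alpha-mannosidase, was 1.08 higher in C1q-positive than in Ccr2-positive cells, while AM-like minus Ccr2-positive was -0.87, which missed the fold. For C1q-positive minus Ccr2-positive cells, Hexa and Man2b1 each missed the fold under 4 other settings. Gaa, the enzyme of glycogen breakdown, was found in 6 of 73 cells, and Glb1, beta-galactosidase, also in 6. Their highest values were 132 and 101.3 FPKM, and neither can be compared between classes at this detection.

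The 7 lipid genes were divided. Lipa encodes the acid lipase that frees cholesterol and fatty acids from the lipids taken up (chromosome 19, 34492318 to 34527474). It was detected in 14 of 14 AM-like cells, from 15.6 to 1924 FPKM with a median of 98.1. In C1q-positive cells it ran from 0 to 367 (median 53.2, 8 of 10 cells) and in Ccr2-positive cells from 0 to 524 (median 0.24, 18 of 42 cells). All 14 AM-like cells and 9 of 10 C1q-positive cells were above the Ccr2-positive median, with differences of 4.64 and 2.36. Lipa was thus past the fold in both, and AM-like minus C1q-positive was 2.28.

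Npc1 and Npc2 hand cholesterol out of the lysosome, Npc2 as the soluble carrier and Npc1 in the membrane. Npc1 was detected in 9 of 14, 2 of 10 and 11 of 42 cells, with medians of 3.12, 0.02 and 0 FPKM, and AM-like minus Ccr2-positive was 1.43. Npc2 went the other way at -1.08, with medians of 25.4, 107 and 148 FPKM and detection in 13 of 14, 8 of 10 and 40 of 42 cells. Npc2 was the higher of the pair in 11 of 14 AM-like and 41 of 42 Ccr2-positive cells.

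Gm2a encodes the activator protein that presents ganglioside GM2 to beta-hexosaminidase (chromosome 11, 55098115 to 55113029). Its means were 140 ± 170 in AM-like, 455 ± 476 in C1q-positive and 561 ± 383 in Ccr2-positive cells, and AM-like minus Ccr2-positive was -2.53. In 13 of 14 AM-like cells it was below the Ccr2-positive median of 599 FPKM, and in 10 of 10 C1q-positive cells above the AM-like median of 80.95. The enzyme and its activator differed in order: Gm2a was the higher of Hexa and Gm2a in 40 of 42 Ccr2-positive and 8 of 10 C1q-positive cells, but in 9 of 14 AM-like cells. Psap, the precursor of the saposins, which present other sphingolipids, was 1.41 higher in AM-like than in Ccr2-positive cells, at means of 172 ± 112 and 100.1 ± 154. Asah1, acid ceramidase, differed by -0.28. Smpd1, acid sphingomyelinase, was found in 6 of 73 cells.

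Of the 5 membrane proteins, 4 were past the fold upward in AM-like against Ccr2-positive cells and 1 downward, beside 13.5% and 6.46% of all genes. Lamp1 and Lamp2 are the chief glycoproteins of the lysosomal membrane, and they went opposite ways. Lamp1 had medians of 99.4 FPKM in AM-like, 28.4 in C1q-positive and 49.1 in Ccr2-positive cells, and AM-like minus Ccr2-positive was 1.50. Lamp2 had medians of 18.99, 71.9 and 83.2, and AM-like minus Ccr2-positive was -1.86. Lamp1 was the higher of the pair in 10 of 14 AM-like cells, and Lamp2 in 30 of 42 Ccr2-positive cells.

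Cd68, a macrophage glycoprotein of late endosomes, had means of 722 ± 617, 286 ± 286 and 459 ± 370 in AM-like, C1q-positive and Ccr2-positive cells. Its difference of 1.03 was just past the fold, and its class medians of 467 and 435 FPKM in AM-like and Ccr2-positive cells were close. Laptm5, a lysosomal protein of blood cells, had means of 557 ± 325, 271 ± 306 and 321 ± 242, a difference of 1.21. Scarb2, which carries glucocerebrosidase to the lysosome, differed by 1.61 and was found in 10 of 14, 3 of 10 and 12 of 42 cells.

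Transcripts of the channel and the regulator were rare. Mcoln1, the calcium channel of lysosomes, was detected in 5 of 73 cells, at no more than 36.6 FPKM. Tfeb was detected in 7 of 73 cells, of which 4 were AM-like, 1 C1q-positive and 2 Ccr2-positive, with 152 FPKM in cell 13 and 219 in cell 86. Both were detected together in 1 cell. At this rate of detection no difference between classes could be read for either gene.

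Set directly against C1q-positive cells, AM-like cells had the largest differences at Atp6v0d2 (7.15), Ctsk (5.84), Ctsd (4.45), Atp6v1b2 (4.26), Atp6v0e (3.83) and Atp6v1g1 (3.81). The 6 genes past the fold in favour of C1q-positive cells were Lgmn (-2.69), Ctsb (-2.43), Gm2a (-2.37), Man2b1 (-1.95), Gusb (-1.53) and Atp6v0c (-1.29). Of these, 5 are hydrolases or an activator and 1 is a pump gene.

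Other genes of the lysosome, in lists that do not include the 46, gave the following counts for AM-like minus Ccr2-positive cells, each to be read against 13.5% of all genes upward and 6.46% downward. Of 26 other hydrolases kept, 6 were past the fold upward (23.1%) and 1 downward (3.85%), with a median of 0.53. Acp5, a phosphatase known from osteoclasts, was 3.31 higher in AM-like cells, and Dnase2a, the acid nuclease, 2.95. Plbd1, a phospholipase B-like protein, was the exception at -4.75, detected in 1 of 14 AM-like and 36 of 42 Ccr2-positive cells.

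Of 18 other membrane and sorting genes, 3 were past the fold upward in AM-like cells (16.7%) and 1 downward (5.56%), shares near the 13.5% and 6.46% of all genes. Cd63, a tetraspanin of late endosomes, was 3.97 higher in AM-like and 4.20 higher in C1q-positive than in Ccr2-positive cells, where it was detected in 2 of 42. Sort1, a sorting receptor, was 2.06 higher in AM-like cells, and Ostm1, a chloride channel partner, 1.04. Slc11a1, a metal transporter of phagosomes, was -2.09 and detected in 0 of 14 AM-like cells. Grn, progranulin, was 1.93 higher in C1q-positive than in Ccr2-positive cells and 0.80 higher in AM-like cells.

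Of the 12 further pump genes, 5 were kept and 5 were at 0 in every cell. Of the 5 kept, 1 was past the fold upward in AM-like cells (20%), Atp6v1c1, and 0 downward. Their median difference was 0.26, and the shares of all genes were 13.5% and 6.46%. Of the 14 pump genes among the 46, by contrast, 9 were past the fold upward and 0 downward. Atp6v1c1, a subunit that links the sectors, was 4.23 higher in AM-like than in Ccr2-positive cells, with means of 90.6 ± 112 and 6.38 ± 31.3 FPKM. Tcirg1, the form of the proton-conducting a subunit known from osteoclasts, had means of 11.7 ± 25.1, 6.72 ± 8.60 and 13.1 ± 28.4 in AM-like, C1q-positive and Ccr2-positive cells.

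Of 16 regulators of lysosomal genes and of the nutrient-sensing complex on lysosomes, 4 were past the fold upward in AM-like cells (25%) and 2 downward (12.5%), against 13.5% and 6.46% of all genes, so that both shares were higher. Tfec and Mitf, relatives of Tfeb, were 3.15 and 1.72 higher. Tfec was detected in 12 of 14 AM-like, 0 of 10 C1q-positive and 9 of 42 Ccr2-positive cells, and Mitf in 6, 1 and 2. Tfe3 differed by -0.33. Rragc and Lamtor3, of the nutrient-sensing complex, were 3.04 and 3.05 higher, and Lamtor4, of the same complex, was -1.80.

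Of 5 genes kept from a list of cathepsin inhibitors, 3 were past the fold upward in AM-like cells and 1 downward, beside 13.5% and 6.46% of all genes. Cst3, the secreted cystatin C, had means of 558 ± 425, 2229 ± 1356 and 1670 ± 1646 in AM-like, C1q-positive and Ccr2-positive cells, and AM-like minus Ccr2-positive was -1.45. Cstb, the cystatin of the cytosol, was 2.38 higher, at 1097 ± 988 against 395 ± 413. Serpinb1a and Serpinb6a, serine protease inhibitors placed on the same list, were 2.96 and 3.17 higher and make up 2 of the 3. Whether they act on the cathepsins described here was not tested. Of 14 housekeeping genes kept, 2 were past the fold upward (Hprt at 2.36 and Gapdh at 1.8) and 1 downward (Rplp0 at -1.17), with a median of -0.19.

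Within a class the lysosomal genes varied together only in part. The pump level and the level of the 32 other genes had a Spearman rho of 0.70 over the 14 AM-like cells, 0.12 over the 10 C1q-positive cells and 0.71 over the 42 Ccr2-positive cells. With the housekeeping level, the pump level had a rho of 0.72, 0.67 and 0.49 in the same order. The level of the 32 other genes had 0.56, -0.04 and 0.44 with it. The pump level thus followed housekeeping genes at least as closely in AM-like and C1q-positive cells. These values are descriptions over cells that share differences in gene number and depth. Within Ccr2-positive cells, the rho of the level of the 46 genes with the number of genes detected was 0.79. The V0 and V1 levels had a rho of 0.45 over AM-like cells, -0.12 over C1q-positive cells and 0.52 over Ccr2-positive cells.

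Over all 73 cells, the genes most like the mean of the other 45 were Atp6v0d2 (rho 0.51), Atp6v1g1 (0.51), Atp6v0d1 (0.49), Ctsc (0.47), Ctsl (0.44) and Atp6ap1 (0.44), and the least alike were Gm2a (-0.07) and Smpd1 (-0.13). Atp6v0d2 was detected in only 16 of the 73 cells, 13 of them AM-like, so its rho is tied to the class difference. Within AM-like cells the order was another one. Tpp1 (0.78, detected in only 7 of 14 cells), Ctsd (0.75) and Lyz2 (0.67) led, and Psap came last at -0.56. Within Ccr2-positive cells Ctsc (0.59) and Lyz2 (0.55) led.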

How the data were processed

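Single cells were captured on a Fluidigm C1 device, and polyA RNA was amplified with SMARTer chemistry and made into libraries with Nextera XT, per the labels' protocols. The submitters' processing notes name CASAVA 1.8, TopHat2 2.1.0, Cufflinks 2.2.1, Cuffnorm and the mouse build mm10. The authors deposited FPKM values per gene and cell, and a second table, treated as signal, of fragments normalised between cells by the authors. Of that signal, 99.6% of 99991 values between 0.5 and 20 steps lay within 0.1 of a whole step, and the steps gave each cell's depth. No count model was used. The 100 spike-in rows were removed.

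Means, medians and differences were computed on FPKM or log2(FPKM + 1) for genes with a mean FPKM of 1 or more, in Python 3.11.15 with pandas 2.3.3, numpy 2.4.6 and scipy 1.17.1. Genes described in full were those with the 10 or 6 largest differences, the 10 highest and 6 lowest means, fixed gene pairs, and up to 4 genes of each other list. The 46 genes and all lists were chosen with earlier results of these data known. With 1 mouse there is no replicate and no test. The calculation of differences was tested on simulated data. Gene positions are from GENCODE M21 on mm10, and promoters are credited to RefSeq, GRCm38.p6. Other pseudocounts, filters, class rules and thinning were tried, and their effects are given at the end. Some genes of the other hydrolase list are not reported here by name.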

Additional observations from a re-analysis of the deposited data

Results flagged for a closer look

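In the unclassed cells, cell 93 had a level of 0.329 over Mcoln1 and Tfeb while the other 6 cells were at 0. The level came from Tfeb alone, at 0.578 FPKM, which is under the FPKM of 1 that counts as detected. Among 24 such sets of levels examined, chance alone flags about 1 in 20 only where values are normally distributed. Where all other cells are at 0, the rule flags any single value above 0, so this rate does not apply to cell 93. Spike-in transcripts, which the comparisons did not use, took a median of 36.6% of all fragments per cell over the 73 cells.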

How the results depend on the processing

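At a pseudocount of 10 the genes past the fold upward numbered 14 for AM-like minus Ccr2-positive and 4 for C1q-positive minus Ccr2-positive cells, and 1 was past it downward in the latter. Shares of all genes at that setting were 4.07% upward in the former, and 2.79% upward and 2.02% downward in the latter. The difference in median pump level between AM-like and C1q-positive cells, 2.51, was 1.41 at a pseudocount of 10 and 3.75 at 0.1. With all 3 marker genes needed for a class, 6 genes were lower in AM-like than in Ccr2-positive and 10 lower than in C1q-positive cells. Of all genes, 7.38% and 13.9% were lower at that setting. With class medians in place of means the counts of lower genes were 7 and 10, beside 4.75% and 8.09% of all genes. Ctsa then reversed to -0.48 for C1q-positive minus Ccr2-positive cells. With only the 4 C1q-positive cells that lacked Ccr2, a setting chosen after seeing the data, 15 genes were higher and 11 lower than in Ccr2-positive cells, and AM-like cells had 13 lower genes against them. Of all genes, 13.6% were higher and 16.1% lower in these cells than in Ccr2-positive cells, with a median difference of -0.27. AM-like cells had 13.4% of all genes lower against them. Of 658 values of single genes under other settings, 648 moved by less than the spread over cells, 9 moved by more and 1 reversed. These values cover only 47 differences that were past the fold at the main setting. The spread over cells is wide, so a value can stay within it and still miss the fold. Atp6v1h in C1q-positive minus Ccr2-positive cells missed it under 6 settings. Atp6v0c in that comparison and Cd68 in AM-like minus Ccr2-positive cells missed it under 5 each. The cause of these changes was not tested. No paired analysis was possible because all cells belong to 1 group of 1 mouse and no test was made. Thinned to 347003 mouse fragments per cell, Mcoln1 was detected in 5 and Tfeb in 8 of the 73 cells, too few to compare classes.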
